A study of Mus musculus with 23 samples.

Results

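Of 23 single mouse arcuate neurons, 4 held far more Cartpt RNA than the others, and their transcriptomes are described here against those of the 11 other cells that share their title prefix. The 4 cells were chosen by their measured Cartpt level: among the 15 cells titled JCb5.2, they are those with 15000 FPKM or more, namely cells 4, 6, 12 and 13. FPKM counts a gene's sequenced fragments per unit of transcript length and of library size. The comparison cells are JCb5.2 cells 1 to 3, 5, 7 to 11, 14 and 15. Another 8 cells, titled JCb6, had no part in the choice and are given beside the results. The labels do not explain either prefix.

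Every cell was a GFP-positive neuron picked by hand, after papain digestion and trituration of micro-dissected arcuate hypothalamus, from young adult males of mixed strain background. The mice carried Cre recombinase behind an IRES in the VGLUT2 gene, which encodes a vesicular glutamate transporter, together with a GFP-tagged ribosomal protein L10 that Cre switches on by removing a stop cassette. Because that reporter marks any cell in which Cre has been active, GFP does not show that VGLUT2 was still being made. The cells came from 2 mice, all untreated as far as the labels say, and the labels do not tie a cell to a mouse. A difference between the mice and a difference between the groups therefore cannot be told apart, each sample is 1 cell, and no test between cells was made. The study's title concerns an excitatory pathway from the arcuate nucleus to the paraventricular hypothalamus that brings on satiety.

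Neurons of the arcuate nucleus that make proopiomelanocortin (POMC) restrain feeding. They cut the precursor into α-melanocyte-stimulating hormone (α-MSH), which acts on melanocortin receptors in the paraventricular hypothalamus and elsewhere, and many of them also make the peptides of Cartpt (cocaine- and amphetamine-regulated transcript). The population is known to be mixed: some POMC neurons carry markers of glutamate release, others of GABA synthesis, and they differ in their hormone and peptide receptors.

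The promoters of the 3 marker genes are shown because these genes carry the description. Cartpt chose the cells, and Sncg and Pomc had the largest mean differences beside it among the genes called higher below. Each sequence is the 250 bases before the start of the gene in RefSeq (build GRCm38.p6), 5′ to 3′ on the gene's own strand. Cartpt lies at chr13:99900684-99900933 on the minus strand, Pomc at chr12:3954695-3954944 on the plus strand and Sncg at chr14:34374670-34374919 on the minus strand. Capitals mark the matches to TGACGTCA (the cAMP response element, which CREB binds), TATAAA (bound by the TATA-binding protein near many start sites) and TTCNNNGAA (the site of STAT factors, which act downstream of leptin), all searched on both strands.
Cartpt: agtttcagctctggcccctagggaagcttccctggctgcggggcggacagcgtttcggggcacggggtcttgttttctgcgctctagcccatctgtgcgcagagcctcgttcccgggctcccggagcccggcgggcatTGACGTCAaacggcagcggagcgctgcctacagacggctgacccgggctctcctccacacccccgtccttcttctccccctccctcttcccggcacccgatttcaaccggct
Pomc: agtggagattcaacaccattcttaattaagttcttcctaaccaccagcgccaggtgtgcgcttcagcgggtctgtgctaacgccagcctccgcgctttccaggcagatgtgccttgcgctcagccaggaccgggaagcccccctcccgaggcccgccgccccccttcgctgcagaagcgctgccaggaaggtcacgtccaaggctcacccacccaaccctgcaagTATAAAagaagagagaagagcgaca
Sncg: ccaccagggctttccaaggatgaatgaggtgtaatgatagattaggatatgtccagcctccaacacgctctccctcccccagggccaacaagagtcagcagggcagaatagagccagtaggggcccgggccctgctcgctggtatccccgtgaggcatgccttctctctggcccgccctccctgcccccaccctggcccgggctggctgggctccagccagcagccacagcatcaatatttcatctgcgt
The match to TGACGTCA in Cartpt begins 112 bases before the start, and 1.55% of all 32851 RefSeq promoter windows of this length hold one. The TATAAA match of Pomc begins 25 bases before the start (12.4% of all windows). None of the 3 windows matched TTCNNNGAA (7.02% of all), and each held at least 1 match to the E box CANNTG (66.2% of all), which is left in lower case. These matches describe the letters only.

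Cartpt, the gene of the rule, measured 32793, 28433, 21807 and 15794 FPKM in cells 4, 6, 12 and 13. The nearest cell outside was cell 5 at 4741 FPKM, followed by cell 3 at 4233 FPKM, and the lowest of the 11 others was at 152 FPKM. In the 8 JCb6 cells Cartpt ran from 50.3 to 1220 FPKM. The transcript alone made up 3.21% to 5.94% of the FPKM sum of the chosen cells, against at most 0.911% in the other 11. Whether this share lowers the other values in those cells was not tested. The FPKM sums were 491411 to 614633 (median 571537) in the chosen cells and 379230 to 538725 (median 499108) in the others. Rescaling all cells to 1 sum, which includes Cartpt, moved the median difference over all genes by -0.11 on the log2 scale. The sums used for rescaling, over genes with loci of at least 300 bp, ran from 448780 to 504191 in the chosen cells. In the others they ran from 344881 to 469550. Cartpt is part of these sums, so the shift does not measure its effect, and its part in the shift was not tested.

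Depth and gene number overlapped between the groups. The chosen cells had 6425 to 8025 genes at or above 1 FPKM, and the other 11 had 6373 to 7822. Depth, estimated from the steps between low values and expressed relative to the JCb5.2 median, was 0.883, 1.39, 0.717 and 1.04 in cells 4, 6, 12 and 13, and 0.423 (cell 14) to 1.32 in the others. Across 9542 genes, Pearson's r of log2 values was 0.695 to 0.734 for the 6 pairs among the 4 cells, 0.595 to 0.711 for the 55 pairs among the others and 0.621 to 0.720 for the 44 mixed pairs. These correlations are descriptions that include Cartpt, and all JCb5.2 cells share a prefix.

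Genes were compared if their locus was at least 300 bp long and they reached 1 FPKM in at least 4 of the 15 cells. A gene was called higher when its lowest value in the 4 cells was above its highest value in the 11 and the means of log2(FPKM + 1) differed by at least 1, and lower in the mirrored case. By this rule 21 genes were higher, 0.22% of those compared, and 8 were lower, 0.0838%. The median difference over all 9542 genes was 0.03 (quartiles -0.50 and 0.58). Because the cells were picked on Cartpt and any gene related to it can follow, the calls are a description of these cells and support nothing further. Differences are given below on the log2(FPKM + 1) scale, as chosen minus other, and understate the gap for low genes.

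**Figure D1:**
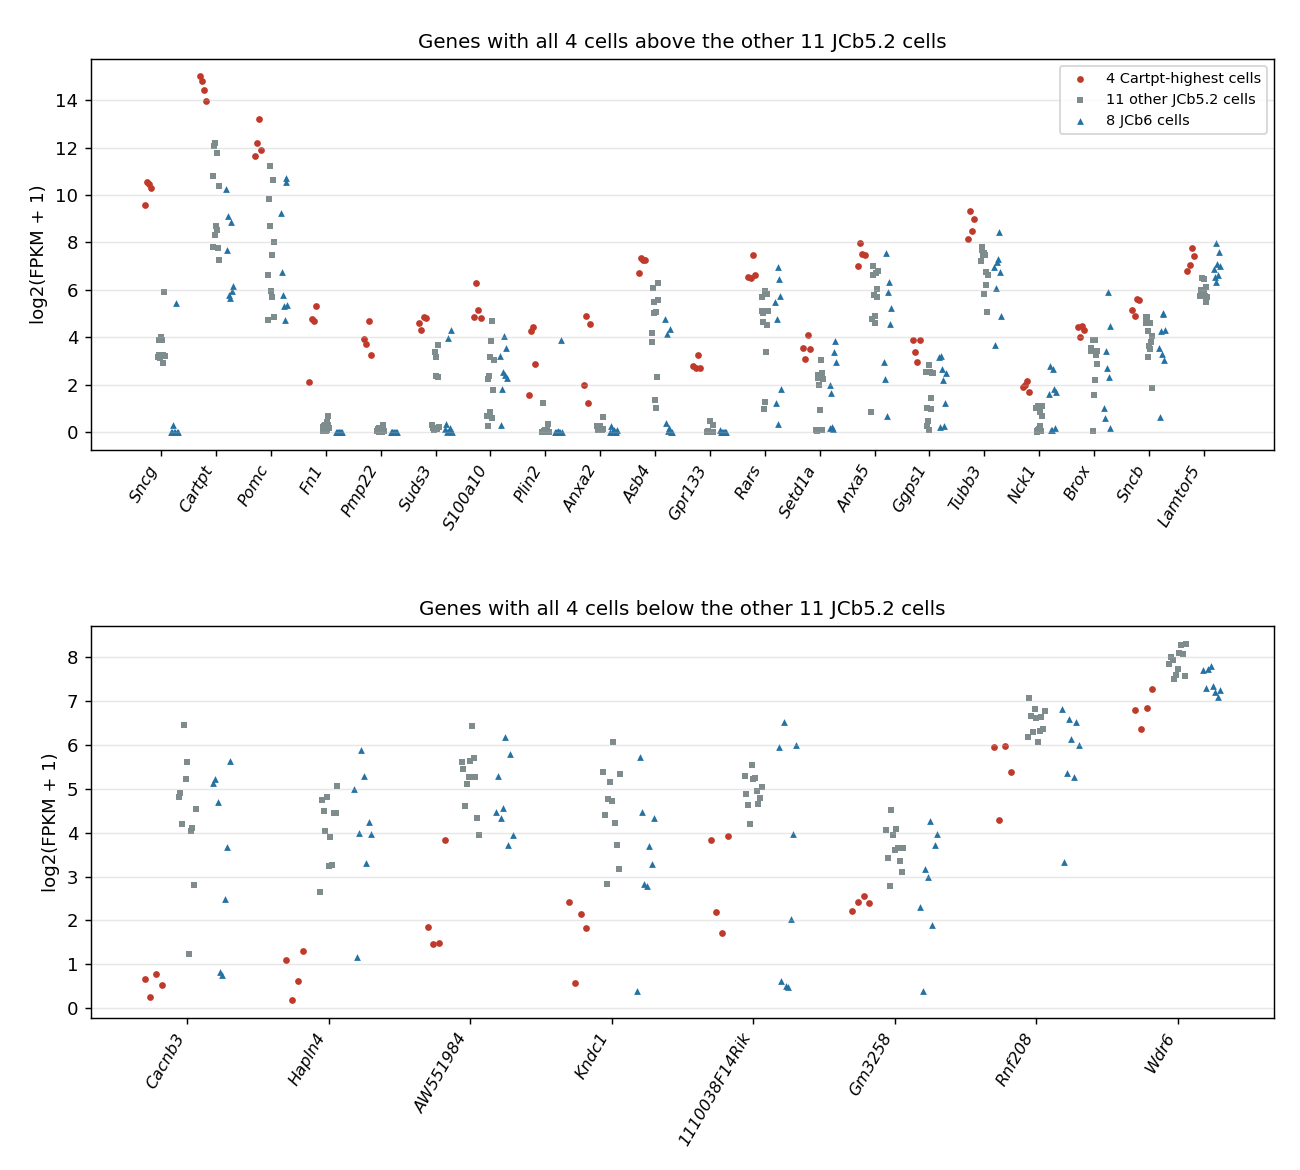
Levels of 20 of the 21 genes called higher (upper panel) and the 8 called lower (lower panel) as log2(FPKM + 1), 1 point per cell, for the 4 Cartpt-highest cells (circles), the 11 other JCb5.2 cells (squares) and the 8 JCb6 cells (triangles). The circles lie apart from the squares by construction; Fn1 and Pmp22 are listed at 0 in every JCb6 cell, while JCb6 values of Wdr6 overlap both groups.

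Pomc, the melanocortin precursor, is the gene that gives these neurons their name. It measured 3214, 4663, 9534 and 3815 FPKM in cells 4, 6, 12 and 13, and from 25.5 to 2378 FPKM (median 177) in the 11 others. The groups did not overlap (difference 4.62), although cell 5 at 2378 FPKM and cell 11 at 1607 FPKM came close. Of the JCb6 cells, cells 6 and 7 held 1664 and 1488 FPKM of Pomc with only 471 and 61.7 FPKM of Cartpt. Cell 12, second lowest of the 4 for Cartpt, had the most Pomc, so that the ratio of Cartpt to Pomc ran from 2.29 to 10.2 within the 4 cells.

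Sncg, which encodes γ-synuclein, a small presynaptic and axonal protein, was the gene with the largest difference (6.52). It stood at 769, 1483, 1393 and 1240 FPKM in cells 4, 6, 12 and 13. The 11 others held 6.61 to 59.4 FPKM (median 8.49), with the highest value in cell 14 and the next at 15.4 FPKM. On the log2 scale the means were 10.21 ± 0.43 (SD, n = 4 cells) and 3.69 ± 0.84 (n = 11). In the JCb6 cells, Sncg was listed at 0 in 6 cells and measured 0.225 FPKM in cell 3 and 42.9 FPKM in cell 6. Thus none of the 11 JCb5.2 cells was listed at 0 while most JCb6 cells were; what sets these low levels was not tested.

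A like split of low values was seen for Fn1, which encodes the matrix protein fibronectin, and in part for Pmp22, a membrane protein best known from peripheral myelin. Fn1 measured 3.32, 26.2, 24.6 and 38.6 FPKM in cells 4, 6, 12 and 13 and at most 0.604 FPKM elsewhere in the prefix, where no cell was listed at 0. For Pmp22 the 4 cells held 14.1, 12.3, 24.8 and 8.48 FPKM and the 11 others at most 0.249 FPKM, with 3 of them listed at 0. Both genes were listed at 0 in all 8 JCb6 cells. Cell 14, the shallowest JCb5.2 cell, gave the highest value of the 11 for 5 of the 21 genes called higher, among them Sncg, Fn1 and Pmp22; whether its depth bears on that was not tested.

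Annexins bind membranes in the presence of calcium, and S100a10 (p11) forms a complex with annexin A2. S100a10 stood at 27.7, 76.7, 34.99 and 27.2 FPKM in cells 4, 6, 12 and 13, above a highest value of 25.2 FPKM (cell 11) in the others (median 3.72). Its partner Anxa2 was uneven among the 4 cells, at 3.00, 29.2, 1.38 and 22.4 FPKM, against no more than 0.579 FPKM in the 11. The Anxa2 locus overlaps that of the microRNA gene Mir3109, which is listed separately, and how reads of the overlap were assigned is not known here. Anxa5 measured 129.3, 251, 181 and 175 FPKM, and its call rests on a gap of less than 1 FPKM to cell 5 at 129.2 FPKM.

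Sncb, which encodes β-synuclein, a relative of the Sncg product, was also called with a smaller difference (1.38). It measured 34.7, 29.2, 47.8 and 46.2 FPKM in cells 4, 6, 12 and 13 and 2.62 to 28.0 FPKM (median 15.5) in the others, without overlap.

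Plin2 and Ggps1 were also called higher. Plin2, which coats lipid droplets, stood at 2.00, 18.5, 20.8 and 6.27 FPKM in cells 4, 6, 12 and 13 against at most 1.37 FPKM in the 11. Ggps1, the synthase of geranylgeranyl diphosphate, measured 14.0, 9.59, 6.88 and 14.0 FPKM against at most 6.19 FPKM.

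Asb4, an ankyrin repeat protein with a SOCS box that has been described in POMC neurons, measured 103, 162, 154 and 152 FPKM in cells 4, 6, 12 and 13. The other 11 cells ranged from 1.04 to 77.3 FPKM (median 31.1), so that Asb4 was present in every JCb5.2 cell at different levels. Gpr133, an adhesion G protein-coupled receptor, was low but even in the 4 cells at 5.90, 5.57, 8.70 and 5.59 FPKM. It reached no more than 0.410 FPKM in the other 11 and 0.0708 FPKM in the JCb6 cells.

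Tubb3, neuronal β-tubulin, measured 280, 638, 358 and 504 FPKM in cells 4, 6, 12 and 13 against 33.0 to 223 FPKM (median 149) in the others. The remaining calls covered chromatin factors (Suds3 at 18.8 to 28.1 FPKM and Setd1a at 7.53 to 16.3 FPKM in the 4 cells) and the arginyl-tRNA synthetase Rars at 90.6 to 176 FPKM. They also covered the adaptor Nck1 at 2.28 to 3.48 FPKM, Brox at 15.3 to 21.2 FPKM and Lamtor5, a part of the Ragulator complex on lysosomes, at 110 to 217 FPKM. In these 6 genes the gap to the other JCb5.2 cells was narrow for Setd1a (highest other value 7.29 FPKM) and Brox (13.9 FPKM). JCb6 cells reached the range of the 4 cells for Setd1a, Rars, Nck1, Brox and Lamtor5.

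Set against all 19 other cells of the series, 10 of the 21 genes had no overlap: Cartpt, Pomc, Sncg, Fn1, Pmp22, Suds3, S100a10, Anxa2, Asb4 and Gpr133. They were the only genes called higher of the 10680 compared in this way. For the 11 JCb5.2 cells the lack of overlap is the call rule itself, so only the 8 JCb6 cells add to it. Cartpt chose the cells, and Fn1, Pmp22, Anxa2 and Gpr133 passed the filter only through the 4 cells. None of the 8 genes called lower did. The 2 JCb5.2 cells nearest in Pomc, cells 5 and 11, held Sncg at 7.80 and 8.47 FPKM, Fn1 at 0.167 and 0.239 FPKM and listed Gpr133 at 0. That they lie under the 4 cells here follows from the call rule, which used them.

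Among the 8 genes called lower, Cacnb3, a β subunit of voltage-gated calcium channels, had the largest difference (-3.80). It measured 0.593, 0.188, 0.729 and 0.437 FPKM in cells 4, 6, 12 and 13 and 1.36 to 86.6 FPKM (median 22.1) in the others. Hapln4, a link protein of perineuronal matrix, stood at 1.14, 0.138, 0.533 and 1.46 FPKM against 5.24 to 32.3 FPKM (median 20.7). Kndc1, a dendritic guanine nucleotide exchange factor, measured 4.38, 0.491, 3.42 and 2.54 FPKM against 6.05 to 65.7 FPKM (median 25.5).

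The other genes called lower were less far apart or less well described. AW551984 was at 1.75 to 2.60 FPKM in 3 of the 4 cells and at 13.3 FPKM in cell 13, just under the lowest other value of 14.3 FPKM. The genes 1110038F14Rik (2.28 to 14.1 FPKM against 17.2 to 45.1 FPKM) and Gm3258 (3.61 to 4.89 against 5.87 to 21.7 FPKM) followed; the Gm3258 locus lies within that of Tpd52l1. Rnf208, a RING finger protein, measured 18.6 to 61.5 FPKM against 65.9 to 132 FPKM. Wdr6 stood at 81.1 to 153 FPKM against 181 to 312 FPKM, and its locus overlaps that of Dalrd3. Without cell 6, the differences of Rnf208 and Wdr6 were -0.75 and -0.93, short of the call rule. For each of the 8 genes, the lowest JCb6 value lay under the highest of the 4 cells. It was 0.700 FPKM (JCb6 median 18.3) for Cacnb3, 1.25 FPKM (16.5) for Hapln4 and 0.313 FPKM (10.4) for Kndc1. Against all 19 other cells, 0 genes were called lower.

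**Figure D2:**
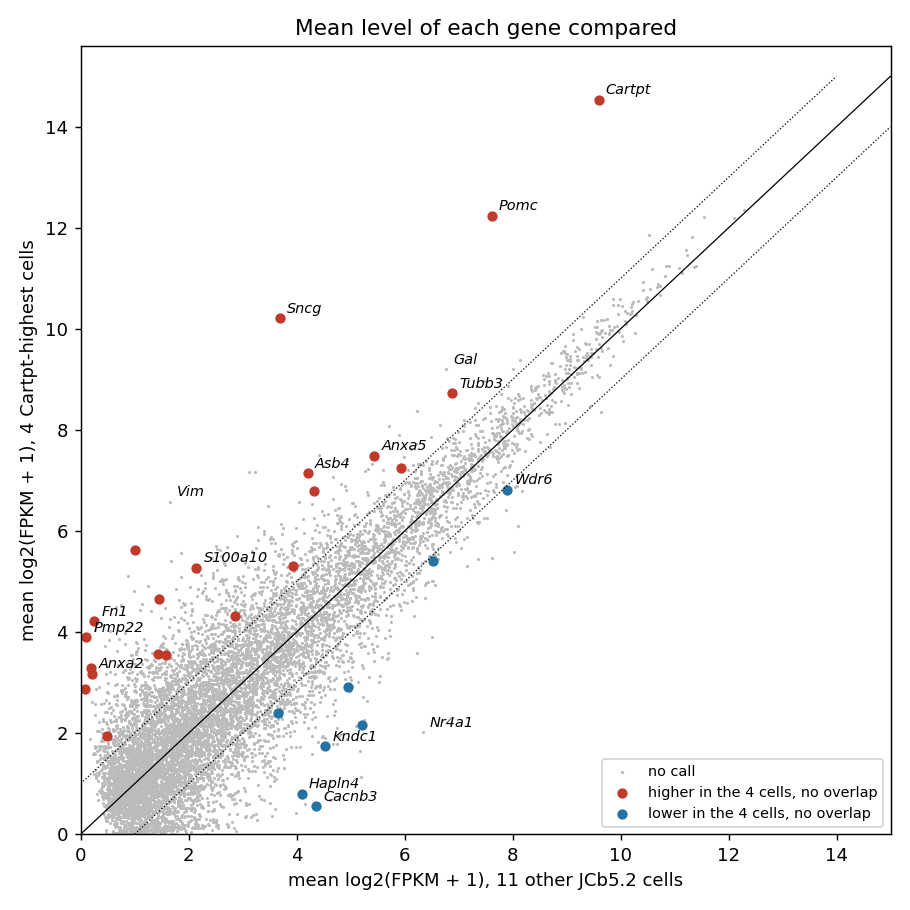
Mean log2(FPKM + 1) in the 4 Cartpt-highest cells (vertical axis) against the mean in the 11 other JCb5.2 cells (horizontal axis), 1 point for each of the 9542 genes compared. Most genes lie along the diagonal (median difference 0.03), with the 21 genes called higher above it, led by Sncg, and the 8 called lower beneath it, led by Cacnb3; Vim, Gal and Nr4a1 are labelled although their groups overlap.

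Some genes differed widely in their means while 1 or more of the 11 cells overlapped the 4. Vim, an intermediate filament gene of tanycytes, astrocytes and immature neurons, measured 74.9, 60.1, 258 and 68.4 FPKM in cells 4, 6, 12 and 13, and 0.187 to 61.5 FPKM (median 0.657) in the others. Only cell 10, at 61.5 FPKM, reached the lowest of the 4, and the difference was 4.93. Cell 12, the highest for Vim, also held the astrocyte marker Gfap at 165 FPKM, and its part in the difference was not tested. Of the other markers of tanycytes and ependyma, Rax and Nes were listed at 0 in all 4 cells, Col23a1 reached at most 0.02 FPKM, and beside Vim only Rarres2 (8.14 FPKM in cell 6) and Foxj1 (1.25 FPKM in cell 6) of the 8 markers reached 1 FPKM in any of the 4. The list summed to 68.6 to 259 FPKM in the 4 cells, nearly all of it Vim, and to 0.317 to 78.1 FPKM in the others.

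The immediate-early and dissociation response list tended the other way. Of its 25 compared genes, 0 were called in either direction, 22 differences were below 0 and the median was -1.06, against 0.03 over all genes. Nr4a1, an orphan nuclear receptor induced within minutes of stimulation, measured 1.53, 4.59, 4.17 and 2.74 FPKM in cells 4, 6, 12 and 13. In the 11 others it ran from 1.85 FPKM (cell 3) to 439 FPKM (median 114), and cell 3 alone fell within the range of the 4 (difference -4.31).

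Arc, an activity-induced gene of the postsynapse, showed a like spread, at 0.167, 0.177, 0.752 and 0.328 FPKM in the 4 cells and 0.0464 to 144 FPKM (median 15.0) in the others, with 2 of the 11 at or below the highest of the 4. Egr1 measured 213, 9.92, 70.5 and 31.0 FPKM against a median of 298 FPKM, and Fos stood at 431, 319, 353 and 323 FPKM against a median of 1175 FPKM. Their ranges in the others, 30.6 to 1789 FPKM for Egr1 and 24.99 to 2469 FPKM for Fos, took in most of the 4 values. Summed over the list, the 4 cells held 761 to 1628 FPKM and the 11 others 191 to 9209 FPKM (median 3426). The list's median stayed between -1.20 and -0.81 when each of the 4 cells was left out in turn.

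Beyond Nr4a1 and Arc, other genes lay below the median of the 11 in all 4 cells with some overlap. Ntm, an adhesion protein of the neurite surface, measured 0.684, 0.507, 4.06 and 0.768 FPKM against a median of 48.9 FPKM (difference -4.08). Atp1b2, a β subunit of the sodium pump, was at 0.265, 0.211, 1.39 and 0.447 FPKM against a median of 22.2 FPKM. Gstm7, a mu-class glutathione transferase, stood at 0, 0.316, 0.816 and 0.699 FPKM against a median of 51.3 FPKM, while 3 of the 11 cells were also at or below 0.816 FPKM. Further genes of this kind were Rpph1, Mad2l2, Pim3, Vma21 and Glt25d1, with differences from -3.94 to -3.18, and Fam171b, Tmem35, 4922501L14Rik, Susd4 and Rfc2, from -3.06 to -2.96.

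**Figure D3:**
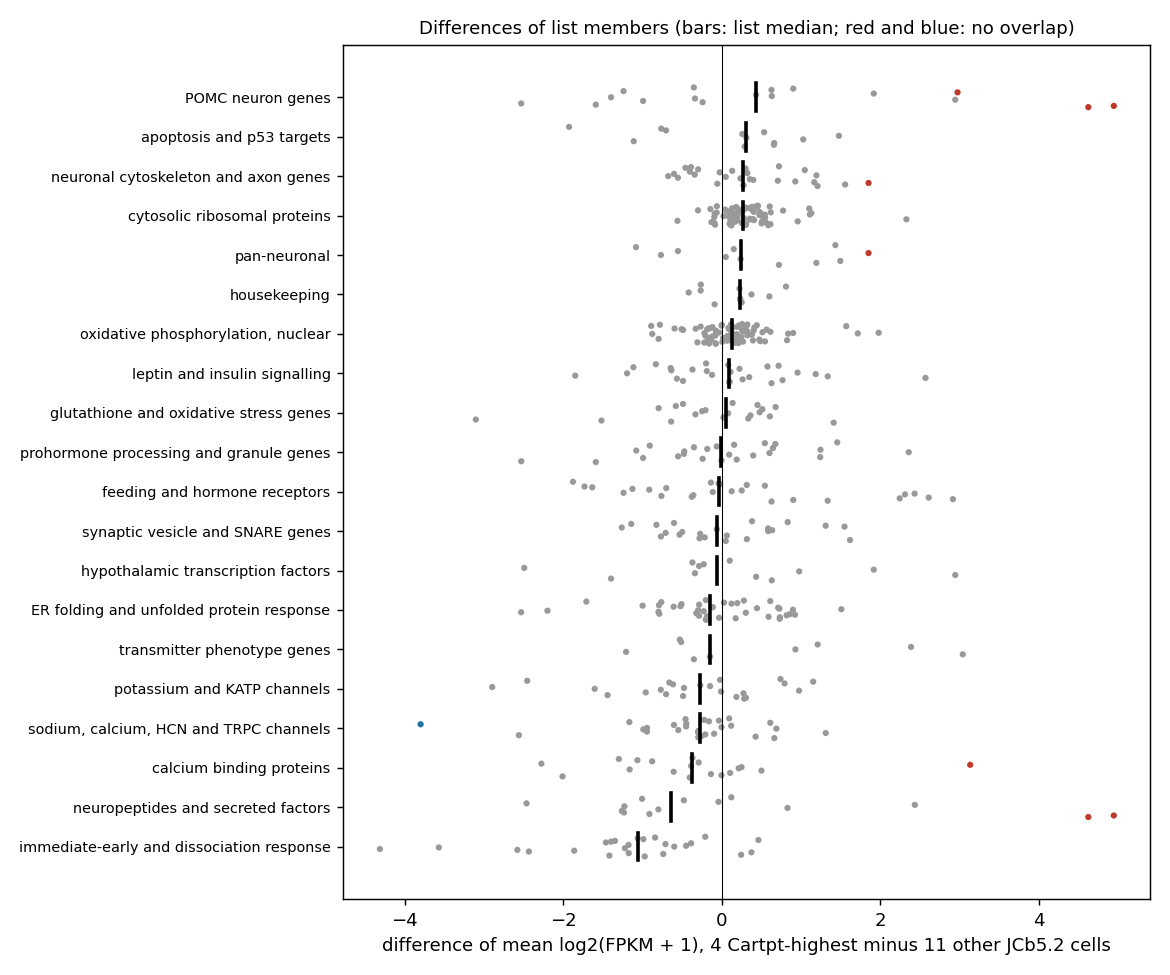
Differences of mean log2(FPKM + 1), chosen minus other JCb5.2 cells, for the compared members of each gene list with at least 9 of them (1 point per gene), with a bar at the list's median. Coloured points are genes without overlap; of the lists drawn, the immediate-early list has the lowest median, -1.06, with no coloured point.

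In the list of POMC neuron genes, 3 of 17 compared genes were called higher, against 0.22% of all genes compared, and 0 lower. The 3 are Cartpt, which chose the cells, Pomc, and Anxa2, which was under 1 FPKM in all 11 others and passed the filter only through the 4 cells, so the count supports nothing. The median difference was 0.43, which turned to -0.13 without cell 4 and -0.19 without cell 13. Without cell 6 or cell 12 it was 0.34 or 0.23. The filter of 4 cells was applied again each time, so Anxa2 left the list, and the changes are not those of the cell alone. Prdm12, a transcription factor needed to start Pomc expression, measured 29.0, 14.3, 2.87 and 18.7 FPKM in the 4 cells. Of the 11 others, 10 were at or below 1.01 FPKM and cell 7 held 46.8 FPKM. The factors Nkx2-1, Tbx3 and Isl1, which shape arcuate POMC neurons, overlapped fully with the other cells (differences 0.63, 0.43 and -1.40).

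Levels of the enzymes that process the precursor overlapped between the groups. Pcsk1, the convertase that makes the first cuts in POMC, measured 25.8, 1.66, 1.46 and 0.799 FPKM in cells 4, 6, 12 and 13 against 0.264 to 76.5 FPKM (median 8.54) in the others. Pcsk2, which cuts further towards α-MSH, stood at 11.7, 3.27, 1.39 and 0.644 FPKM against 0.189 to 96.5 FPKM (median 36.3), a difference of -2.53 with overlap. Cpe, the carboxypeptidase that trims the products, was high everywhere, at 259 to 494 FPKM in the 4 cells and 140 to 719 FPKM in the others. Vgf, a granin-like precursor of secretory granules, had the largest positive difference of its list (2.36), at 124, 698, 152 and 389 FPKM against 4.98 to 352 FPKM (median 51.4). Over the 25 compared genes of prohormone processing and granules, 0 were called, 4 had differences of at least 1, 3 of at most -1, and the median difference was 0.00.

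Among peptides other than Pomc and Cartpt, Gal (galanin) had the largest positive difference, 2.44. It measured 69.0, 3279, 392 and 1340 FPKM in cells 4, 6, 12 and 13, and 6.88 to 429 FPKM (median 182) in the others. Cells 6 and 13 were thus above all 11, cell 12 lay below the highest of them, and 8 of the 11 reached the level of cell 4. Nmb (neuromedin B) was low at 0, 0.467, 1.36 and 9.91 FPKM against a median of 27.8 FPKM (difference -2.46). Peptides that define other arcuate neurons were within the range of the 11: Agrp reached 5.70 FPKM, Npy 20.6 FPKM, Kiss1 6.16 FPKM and Sst 177 FPKM at most in the 4 cells. The highest values in the others were 433, 2660, 1485 and 29792 FPKM.

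Of the 26 compared feeding and hormone receptors, 0 were called, 6 had differences of at least 1 and 5 of at most -1. Over all 9542 genes, 1271 and 1099 had such differences. Npy1r and Npy5r, receptors for neuropeptide Y, had the largest differences (2.92 and 2.61). Npy1r measured 8.71, 160, 21.1 and 123 FPKM in cells 4, 6, 12 and 13 against 0.463 to 39.6 FPKM (median 3.69), with 4 of the 11 at or above the lowest of the 4. Npy5r measured 10.2, 30.2, 1.19 and 23.2 FPKM against at most 11.7 FPKM. Cckar, a receptor for cholecystokinin, stood at 22.9, 125, 4.29 and 68.1 FPKM against 0.202 to 59.5 FPKM, and Oxtr, the oxytocin receptor, at 7.46, 12.2, 0.360 and 22.8 FPKM against at most 7.67 FPKM (cell 7).

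On the negative side, Gpr83, a G protein-coupled receptor gene, measured 0, 0.113, 0.329 and 0.376 FPKM against at most 77.5 FPKM in the others (median 0.934, difference -1.88). Pgr, the progesterone receptor, had a difference of -1.63, with a median of 4.36 FPKM in the others and its highest value of the 4 in cell 13 (3.06 FPKM). Calcr and Sstr1 had differences of -1.24 and -1.13, and these 4 genes overlapped between the groups.

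The neuropeptide Y, cholecystokinin and oxytocin receptors were highest in cells 6 and 13, like Gal, and lowest in cell 12 for Npy5r, Cckar and Oxtr. The leptin receptor Lepr was low throughout, at 2.36, 0, 0.770 and 1.88 FPKM against at most 3.20 FPKM. In leptin and insulin signalling, Ptpn2, a phosphatase that damps cytokine signalling, had the largest difference (2.57), at 18.6, 68.0, 24.6 and 20.7 FPKM against 0.106 to 20.9 FPKM, where only cell 8 reached the lowest of the 4. Of the 27 genes compared in that list, 0 were called.

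Transmitter genes showed both glutamate and GABA markers. Slc17a6, the VGLUT2 gene behind the reporter, measured 22.9, 39.4, 10.7 and 22.7 FPKM in the 4 cells, each under the median of 51.0 FPKM of the 11 others but within their range of 0.520 to 78.7 FPKM. Gad2, a GABA-synthesising enzyme, stood at 101, 87.5, 55.6 and 130 FPKM against 0.441 to 109 FPKM (median 23.8), with 3 of the 11 at or above the lowest of the 4. The vesicular GABA transporter Slc32a1 was at most 0.0864 FPKM in the 4 cells. Slc18a2, the vesicular monoamine transporter, measured 5.86, 45.4, 4.03 and 142 FPKM against at most 11.6 FPKM, while Th was listed at 0 in all 15 JCb5.2 cells.

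Channel genes had medians slightly below 0. In potassium channels the median over 23 compared genes was -0.27, with 0 called; Kcnip4, a subunit of A-type channels, measured 12.8, 0.429, 3.13 and 0.687 FPKM against a median of 58.3 FPKM. In the sodium, calcium, HCN and TRPC list the median over 28 genes was also -0.27, and Cacnb3 was the 1 gene called. Scn3b, a sodium channel β subunit, stood at 0.0831, 0.158, 0.664 and 5.77 FPKM against a median of 16.5 FPKM, with overlap. In the list of calcium binding proteins, 1 of 18 was called (S100a10, higher) and the median was -0.38. Membership of that list does not show that a product binds calcium. Over all genes compared, 0.22% were called higher and 0.0838% lower. Cacnb3 and S100a10 are calls already described above, so these list counts add nothing to them.

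For endoplasmic reticulum folding and the unfolded protein response, 0 of 40 genes were called and the median was -0.15, turning to 0.03 without cell 4 and 0.14 without cell 12. Within it, Herpud1 measured 19.4, 0.766, 5.12 and 17.7 FPKM against a median of 81.6 FPKM (difference -2.53), whereas Xbp1 stood at 46.7, 158, 93.9 and 109 FPKM against a median of 39.5 FPKM (difference 1.51). Both overlapped. In neuronal cytoskeleton and axon genes, 1 of 27 was called (Tubb3, described above), against 0.22% called higher of all genes compared. The median was 0.27, and Stmn2 and Tubb2a had differences of 1.19 and 1.17 with overlap. Cytosolic ribosomal protein genes (78 compared), nuclear oxidative phosphorylation genes (85) and housekeeping genes (11) had 0 calls and medians of 0.27, 0.12 and 0.23, of which the second turned to -0.03 when cells were rescaled to the same sum.

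Markers of other cell types were examined next. None of 7 microglial, 11 endothelial, mural or meningeal and 13 pituitary markers reached 1 FPKM in any of the 4. Tbx19, Pitx1 and Pax7, transcription factors of the pituitary, another source of POMC, were listed at 0 in all 4. Astrocyte markers summed to 8.65 to 166 FPKM in the 4 cells and 0.122 to 6.05 FPKM in the others, without overlap, and 3 of the 7 reached 1 FPKM in any of the 4. Gfap gave 165 FPKM of this in cell 12 and 7.96 FPKM in cell 13, S100b 10.3 FPKM in cell 6 and Slc1a2 8.30 FPKM in cell 4. Slc1a3 was listed at 0 and Aqp4, Aldh1l1 and Gja1 were at most 0.0921 FPKM. Oligodendrocyte markers summed to 0.322 to 11.3 FPKM in the 4 cells and 0.218 to 53.4 FPKM in the others, and Mag gave 10.9 FPKM in cell 13. Haemoglobin and other red blood cell genes summed to 6.65 to 93.2 FPKM against 3.45 to 622 FPKM. The part of these transcripts in the values of the 4 cells was not tested.

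The 4 cells were not alike among themselves. Of the genes with loci of at least 300 bp, 4117 reached 1 FPKM in all 4 cells, 1977 in 3, 1987 in 2 and 2733 in 1. Genes at or above 50 FPKM in 1 cell and under 1 FPKM in the other 3 numbered 1 for cell 4, 5 for cell 6, 12 for cell 12 and 2 for cell 13. The largest spread was that of Gad1, the second GABA-synthesising enzyme, which measured 97.2 and 125 FPKM in cells 4 and 12 but 0.364 and 0.862 FPKM in cells 6 and 13. Gad2, in contrast, was at 55.6 FPKM or more in all 4.

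Other genes with a large spread among the 4 cells divided them in several ways. The 10 genes were picked for that spread, and some varied widely among the 11 others too. On the log2 scale, the SD there was 2.70 for Gad1, 2.63 for Alg5, 2.28 for 2810001G20Rik and 2.58 for Fam159b. Among the 4 cells it was 3.54, 3.19, 3.31 and 3.19. For the rest of the 10 it ran from 0.11 (Clic1) to 2.05 (Zfand2b) in the 11. Whether the 4 cells fall into kinds was not tested. Alg5, 2810001G20Rik and Fam159b were high in cells 4 and 12 and under 1 FPKM in cells 6 and 13, as Gad1 was; Fam159b, for example, measured 128 and 35.6 FPKM against 0.630 and 0.696 FPKM. Gfap, Clic1 and 4930405A21Rik were highest in cell 12, at 165, 106 and 115 FPKM. Nprl2 and Zfand2b were also highest there, at 321 and 128 FPKM, and Fbxo36 was high in cells 6 and 12 (49.1 and 62.6 FPKM). Calb2, which encodes calretinin, measured 504 and 244 FPKM in cells 4 and 12 and 7.10 and 20.7 FPKM in cells 6 and 13, within a range of 18.4 to 1654 FPKM in the others apart from cell 6. Gal, Npy1r, Cckar and Slc18a2 had the reverse order, with cells 6 and 13 above cells 4 and 12.

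**Figure D4:**
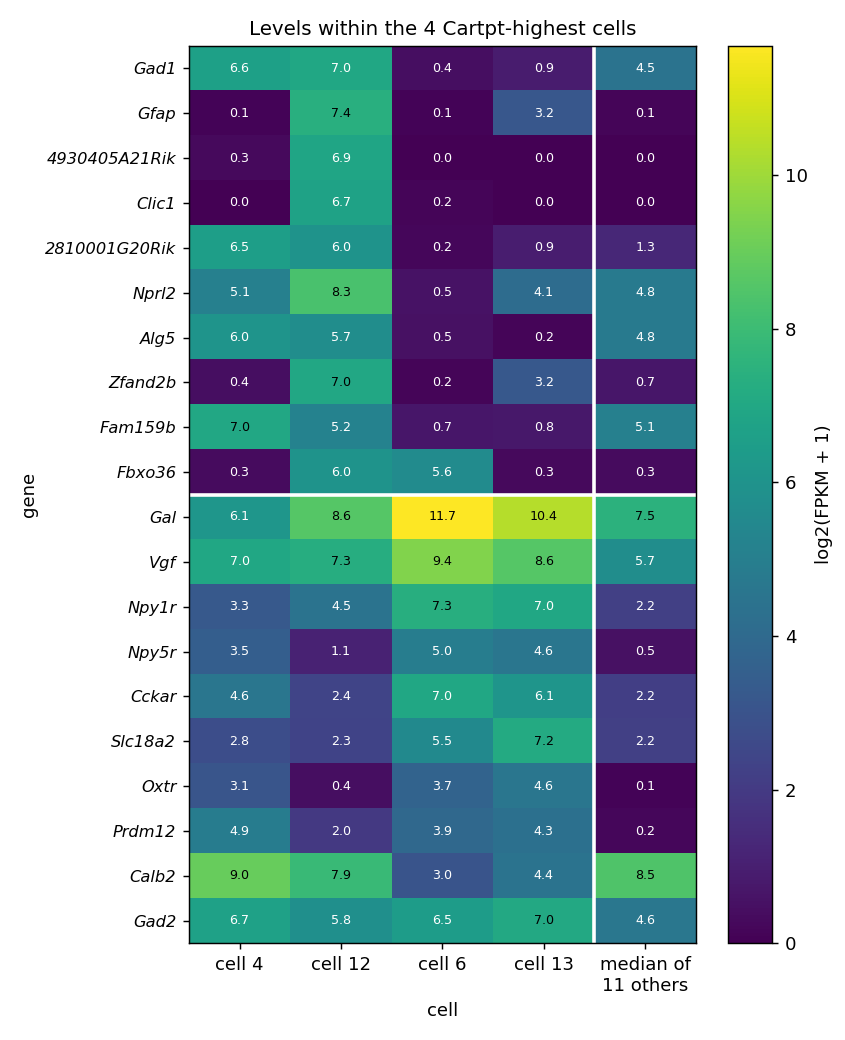
Levels as log2(FPKM + 1) in each of the 4 Cartpt-highest cells (columns, ordered as cells 4, 12, 6 and 13) and the median of the 11 other JCb5.2 cells (last column). The upper block holds the 10 genes with the largest SD among the 4 cells and the lower block genes named from the lists; cells 4 and 12 hold Gad1 (97.2 and 125 FPKM) where cells 6 and 13 are under 1 FPKM, while Gal is highest in cells 6 and 13.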

How the data were processed

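Per the labels' protocols, polyadenylated RNA of single cells was amplified by SmartSeq2 and sequenced from NuGen Ovation Rapid libraries. The submitters' processing notes name CASAVA 1.8, TopHat, Cufflinks and the mm10 build. Which annotation and filters were used is not given in the sources used here, nor are the other versions. What the authors deposited are FPKM values in a table of genes by cells, without read counts. SmartSeq2 has no molecular identifiers, and amplified copies count as reads.

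Of 23896 rows, 12 leftover summary rows, 286 identical copies and 27 rows with names turned into dates were left out. Rows of 124 symbols were summed, giving 23373 genes. An exact 0 is described as listed at 0. From the deposited FPKM values, log2(FPKM + 1) was computed. Of 22635 genes with loci of at least 300 bp, 9542 passed 1 FPKM in at least 4 of the 15 JCb5.2 cells, a filter that a gene high in the 4 cells alone can pass. All comparisons are descriptions without p-values. Relative depth is the most frequent ratio of low values between cells; absolute depth is unknown. The procedure was tested on simulated data.

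The members and gene lists were chosen with earlier results of these data known. Named are Cartpt, Pomc and Sncg, up to 25 genes called higher, up to 15 called lower, up to 15 with all 4 cells below the median of the 11, up to 4 further genes per list by size of difference, the 10 genes with the largest SD among the 4 cells, and markers of other cell types at or above 1 FPKM. Some list genes were left out for length, and 1 gene called higher is counted but not reported here by name; others, such as Cpe, Fos, Nkx2-1, Tbx3, Lepr, Gpr83, Pgr, Calcr, Sstr1, Slc17a6, Slc32a1, Th and markers near 0, were chosen after their values were seen. Locus coordinates in the table were found to count starts from 0. Promoters came from RefSeq and matched 16 of the 21 genes called higher. Alternatives covered the pseudocount, the filters, rescaling, other comparison cells and leaving out cells. Values were computed with pandas 2.3.3 and numpy 2.4.6 under Python 3.11.15, and plotted with matplotlib 3.10.9.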

Additional observations from a re-analysis of the deposited data

Results flagged for a closer look

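For the 29 genes called, the spread was examined within the 4 Cartpt-highest cells and within the 8 JCb6 cells. In 10 of these 58 groups 1 cell stood apart from the rest by Dixon's criterion on log2(FPKM + 1), 4 among the chosen cells and 6 in JCb6; chance flags about 1 group in 20 where values are spread evenly enough for the criterion, which does not hold for JCb6 groups listed mostly at 0, such as Gpr133 and Sncg. Among the 4 cells, Asb4 was lowest in cell 4 (103 FPKM), Gpr133 and Rars were highest in cell 12 (8.70 and 176 FPKM), and AW551984 was highest in cell 13 (13.3 FPKM). In JCb6, cell 6 stood apart with 42.9 FPKM of Sncg, and the same cell had the most Pomc of that prefix. Cell 7 of JCb6 stood apart with 13.7 FPKM of Plin2, cell 2 with 0.210 FPKM of Anxa2, 0.584 FPKM of Sncb and 9.13 FPKM of Rnf208, and cell 1 with 0.0708 FPKM of Gpr133. JCb6 cell 2 had the fewest genes at or above 1 FPKM of its prefix, 4049 against a median of 6597. Whether this bears on its flagged values was not tested.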

How the results depend on the processing

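The counts of 21 genes higher and 8 lower depend on how the cells are set against each other, and 1 cell more or less moves them. Leaving out 1 of the 15 cells gave 22 to 46 genes higher and 8 to 25 lower. Without cell 4, 6, 12 or 13 there were 40, 32, 46 and 35 higher, of which 17 were among the 21 each time. Lower were 18, 12, 17 and 25, of which 8, 6, 8 and 8 were among the 8. Fewer cells then have to clear the others, and Fn1, Pmp22, Anxa2 and Gpr133, under 1 FPKM in all of the 11, fail the filter of 4 cells. The calls lost without cell 6 were those of Rnf208 and Wdr6. Without cell 10 or cell 14, 13 genes were lower, and without any other of the 11 between 8 and 12. With 1 overlapping cell of the 11 allowed, 61 were higher and 34 lower. Against only cells 5 and 11, the other JCb5.2 cells with at least 1000 FPKM of Pomc, 301 were higher and 441 lower, a count that a group of 2 cells inflates. Against all 19 other cells 10 were higher and 0 lower. A filter at 10 FPKM left 13 higher, and a difference of at least 2 left 5 lower. Under the other pseudocounts, filters and scalings tried the counts ran from 15 to 25 higher and from 6 to 9 lower. The 29 called genes kept their direction in all 564 values computed, of which 31 differed from the main value by more than the spread among the cells. With another pseudocount or a cell left out, the call rule fixed the direction in advance, so most of these values bear on size only. Direction could turn only under rescaling or against all 19 other cells. Values without cell 4, 6, 12 or 13 cover only the 25 genes that passed the filter. Rescaling to the same sum left 15 higher and 9 lower. The medians of several lists, among them the POMC, endoplasmic reticulum, transmitter, receptor and transcription factor lists, changed sign when 1 of the 4 cells was left out, as given above for the first 2. The filter was applied again each time, so genes could also leave a list. Without read counts, depth sets no interval here, and values under 1 FPKM can rest on few reads.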

Other observations

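Further gene groups were examined in the 4 Cartpt-highest cells, and none held a gene without overlap. Of 23 synaptic vesicle and SNARE genes compared, 0 were called and the median difference was -0.06. Unc13a, which primes synaptic vesicles, measured 14.2, 14.3, 6.49 and 10.5 FPKM in cells 4, 6, 12 and 13 against 0.348 to 10.4 FPKM in the 11 others, with 5 of them at or above the lowest of the 4. Rims1, a protein of the active zone, stood at 19.5, 2.42, 4.95 and 3.86 FPKM against at most 9.74 FPKM.

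Among 20 glutathione and oxidative stress genes, the mu-class transferases went separate ways. Gstm1 measured 119, 74.3, 109 and 66.8 FPKM against a median of 53.4 FPKM in the others (difference 1.41), whereas Gstm6 stood at 80.6, 1.47, 0.948 and 33.1 FPKM against a median of 38.3 FPKM (difference -1.52). These genes are close copies of each other, so the split of reads among them is uncertain. In the list of 12 apoptosis and p53 genes compared, Trp53 measured 0.230, 3.26, 14.3 and 6.82 FPKM against a median of 0.0853 FPKM, and Gadd45g 68.9, 64.2, 178 and 3.34 FPKM against a median of 115 FPKM. Both overlapped with cells of the other group.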
